A study of Mus musculus with 4 samples.

Results

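Non-classical monocytes, the patrolling monocytes of the blood, were picked out of CD45+ cells of the mouse spinal cord by 4 of their genes, and 192 of 31660 cell barcodes met the rule. A cell was kept with at least 600 genes detected and at most 10% mitochondrial UMIs (unique molecular identifiers, each counted as 1 captured RNA molecule), which left 28346 barcodes. A member then needed at least 1 UMI of Csf1r, the receptor for colony-stimulating factor that monocytes and macrophages carry. It also needed a UMI of at least 2 of Treml4, Ace, Spn and Adgre4, and at most 1 UMI of Ly6c2. Cells with 3 or more of the microglial genes Tmem119, P2ry12, Sall1, Gpr34, Olfml3 and Slc2a5 were left out, as were cells with a UMI of Cd3e (T cells), Cd79a (B cells), Klrb1c (NK cells) or Ccr9. The comparison cells were the 1697 cells of the same libraries with at least 2 UMIs each of Ly6c2 and Plac8, called classical monocytes here by those 2 genes alone. The name was not borne out for many of them: in the standard sham 180 of the 330 carried 2 or more of the progenitor genes Elane, Prtn3, Mpo and Ctsg, and in the ActD sham 34 of the 72 carried 2 or more of the neutrophil genes Ly6g, Retnlg and Camp.

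The mice were C57BL/6, 3 months old and of both sexes, and carried no transgene that the sources name. Injured mice received a laminectomy and a weight-drop contusion at T10, and the study's sham mice the laminectomy alone. The titles of both libraries called sham here name healthy spinal cords, and the study's sorting methods call that group control. CD45+ cells of the cord around the lesion were sorted after perfusion and sequenced in droplets, 1 library per condition: a sham library made by the standard protocol, a sham library made with actinomycin D (ActD, an inhibitor of transcription that keeps dissociation from inducing genes), and libraries at 3 and 14 days post-injury (dpi), which the study's text, though not their labels, describes as made with ActD. The study's methods divide mice of both sexes among control and injured groups, and how many entered each library is not given in the sources used here. With 1 library per condition no test between conditions was possible: every interval on a level or a share covers counting error alone. The standard sham library held 6827 barcodes and 60412094 UMIs, the ActD sham library 2439 and 27447471, the 3 dpi library 10763 and 125270696, and the 14 dpi library 11631 and 129935880.

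In the blood, classical monocytes carry Ly6C and the chemokine receptor CCR2 and enter injured tissue, whereas non-classical monocytes lose these proteins, gain CD43 and high CX3CR1, and crawl along the wall of small vessels through the integrin LFA-1. They derive from classical monocytes, live longer, and depend on the nuclear receptor NR4A1, on C/EBPβ and on survival signals through CSF1R and CX3CR1. Cells left in the vessels after perfusion and cells within the tissue both carry CD45 and cannot be told apart in these libraries.

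Nr4a1 holds a particular place in these data, since it marks the non-classical monocyte and is also an immediate early gene, a gene that stimulated cells switch on within minutes. Immediate early genes are commonly driven through cyclic AMP response elements (CRE), so the stretch before its start is shown, with the CRE-like heptamer TGCGTCA in capitals. It is the 250 bases before the RefSeq start, 5′ to 3′ on the plus strand, at chr15:101266596-101266845 of GRCm38.p6.
Nr4a1: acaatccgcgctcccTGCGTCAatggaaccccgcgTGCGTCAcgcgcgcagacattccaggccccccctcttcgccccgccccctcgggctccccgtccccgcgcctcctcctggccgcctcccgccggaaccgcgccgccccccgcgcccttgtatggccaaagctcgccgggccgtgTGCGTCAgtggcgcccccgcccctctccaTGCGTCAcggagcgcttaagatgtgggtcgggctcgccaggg
The heptamer matched 4 times, all in the forward direction, between positions -235 and -42 from the start. Over both strands (TGCGTCA or its reverse, TGACGCA), it was found in 695 of 32851 RefSeq promoters of 300 bases, which is 2.12%, and only 1 of them, that of Nr4a1, held 3 or more matches. Among the 20 genes listed for non-classical monocytes, 16 had a promoter in the table and Nr4a1 alone held the heptamer. Among 20 immediate early genes, 16 had one and 1 (Fosb) held it. The full CRE, TGACGTCA, which does not contain the heptamer, was found in 588 promoters (1.79%), among them those of the immediate early genes Dusp1, Btg2 and Nfkbid, and in none of the 16 of the non-classical list. These are matches of letters and no binding was measured.

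The members were few in each library. The libraries are given throughout in one order, the standard sham before the ActD sham, and 3 before 14 dpi. There were 36 among 5736 filtered cells in the standard sham library, which is 0.628% (95% Clopper-Pearson interval 0.440 to 0.868). The ActD sham library held 8 of 2203, or 0.363% (0.157 to 0.714), the 3 dpi library 57 of 9528, or 0.598% (0.453 to 0.774), and the 14 dpi library 91 of 10879, or 0.836% (0.674 to 1.03). By this rule the share at 14 dpi was the highest and that of the ActD sham the lowest, and the intervals of neighbouring libraries in that order overlapped. Classical monocytes made up 5.75%, 3.27%, 2.31% and 9.88% of the filtered cells in the same order of libraries. Without the cells that carried progenitor genes these shares were 2.62%, 2.09%, 2.13% and 6.995%, and without cells carrying genes of other classes 3.28%, 1.498%, 1.60% and 6.35%, so that 14 dpi was highest each time and the ActD sham, in place of 3 dpi, was lowest, with overlapping intervals between these 2 libraries. Under other settings 3 dpi stayed lowest, with 1.28% against 2.86% in the ActD sham for a classical rule of 4 UMIs. The values were 0.987% against 1.41% with no microglial gene, and 0.374% against 0.655% with cells thinned to 2000 UMIs first. After thinning 32 cells at 3 dpi met the classical rule in place of 220. With progenitor and other-class cells both left out, the ActD sham was lowest (0.635%, against 1.47% at 3 dpi). Shares of this kind are set by the sort and by the other cells in each library as much as by the monocytes.

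**Figure D1:**
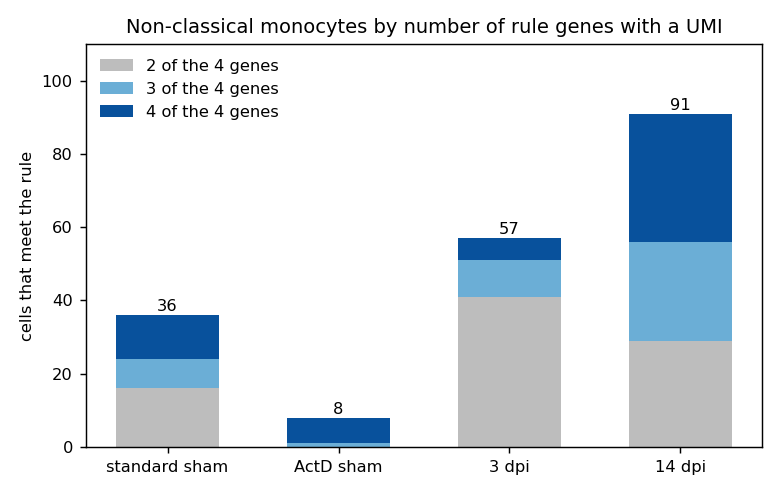
Number of cells meeting the rule in each library (y axis, cells), stacked by how many of the 4 genes Treml4, Ace, Spn and Adgre4 had a UMI. The totals are 36, 8, 57 and 91, and 41 of the 57 cells at 3 dpi had exactly 2 of the genes, against 29 of 91 at 14 dpi.

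How many of the 4 genes a cell showed differed between libraries. All 8 members of the ActD sham library had 3 or 4 of them, and so did 20 of 36 in the standard sham library and 62 of 91 at 14 dpi. At 3 dpi only 16 of 57 did, and the other 41 sat at the threshold of 2 genes. Just outside it, cells that met the rest of the rule with 1 of the 4 genes numbered 52, 6, 514 and 151 in the libraries named in that order, and cells with none 282, 104, 3729 and 936. At 3 dpi the pool with no such gene was thus much larger than the members. Values are given below for all members and, for the main results, also for the 106 members with 3 or 4 of the genes, which made up 0.349%, 0.363%, 0.168% and 0.570% of the filtered cells. Counted so, 3 dpi and not the ActD sham had the lowest share.

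The rule's other threshold was on Ly6c2, the gene of the classical marker Ly6C. Of the members, 29 of 36, 8 of 8, 48 of 57 and 70 of 91 had no UMI of it, and 7, 0, 9 and 21 had exactly 1. Cells that met the rest of the rule with exactly 2 UMIs numbered 2, 2, 6 and 15, and those with 2 or more numbered 37, 15, 15 and 216. The cells with non-classical genes and at least 2 UMIs of Ly6c2 thus outnumbered the members in both sham libraries and at 14 dpi (216 against 91). At 3 dpi they were fewer (15 against 57). On the classical side, 32 of 330, 15 of 72, 12 of 220 and 215 of 1075 cells carried 2 or more of the 4 genes.

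Depth differed between the classes. The median member held 5323, 8866.5, 7727 and 5447 UMIs in the 4 libraries, and the median classical monocyte 17289.5, 25655, 9019 and 10349. Single cells weighed heavily in the sham libraries, where 1 cell held 26.7% of the members' 291738 UMIs (standard sham, a 2-gene cell) and 27.3% of 82569 (ActD sham), against 6.96% of 698491 at 3 dpi and 3.60% of 599400 at 14 dpi. That standard sham cell held 77995 UMIs, of which 3 belonged to the non-classical list (38.5 CPM, the lowest of the 36 members, whose median was 8937), while its 6000.4 CPM of the proliferation list was the highest of the 36, so its genes went against the name. Its UMIs enter every standard sham value for all members and none for 3 or 4 genes. Without it the summed non-classical list of the standard sham moved from 5214 to 7102 CPM and the proliferation list from 2177 to 781 CPM, and edgeR's test against classical monocytes, given with the listed genes, called 22 genes higher and 104 lower in place of 27 and 67. Doublet calls fell on 0, 0, 5 and 3 members. Any pair of libraries shared between 3 and 36 barcode sequences, 1 of the shared barcodes was a member (at 3 dpi), and none was a member in 2 libraries.

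The rule's own genes are described here without a test, as CPM, the UMIs of a gene per 1000000 UMIs of the summed members. Treml4 (chr17:48264295-48275360 of mm10), a receptor that strengthens Toll-like receptor signals, stood at 202, 279, 97.4 and 205 CPM in the members of the 4 libraries. Ace (chr11:105967945-105989964), angiotensin-converting enzyme, stood at 374, 836, 109 and 434 CPM. Spn (chr7:127132232-127137823), which encodes the sialoprotein CD43, stood at 226, 509, 106 and 317 CPM, and Adgre4 (chr17:55749984-55853662), an adhesion receptor of the F4/80 family, at 175, 569, 41.5 and 279 CPM. All 4 were lowest at 3 dpi and highest in the ActD sham library. In the members with 3 or 4 genes the 3 dpi values were 208 (Treml4), 424 (Ace), 349 (Spn) and 183 CPM (Adgre4) and the 14 dpi values 309.7, 589, 469 and 388 CPM, again the higher of the pair for each gene. Csf1r followed the same order, with 428, 993, 298 and 741 CPM, against 138, 156, 280.0 and 275 in classical monocytes. Plac8, which the rule for the members did not use and that for the classical cells did, stood at 1449.9, 2761, 820.3 and 3258 CPM in members and at 2486, 4000.2, 1369 and 3651 CPM in classical monocytes, higher in every library than in all members. In the members with 3 or 4 genes Plac8 stood at 2389, 2761, 2962 and 3465 CPM, above the classical value at 3 dpi and below it in the other libraries.

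Nr4a1 (chr15:101254269-101274795 of mm10), a marker of the class that the rule did not use, stood at 668 CPM in the members of the standard sham library (95% exact Poisson interval 578 to 769), 715 in the ActD sham library (544 to 922), 245 at 3 dpi (209 to 284) and 284 at 14 dpi (243 to 330). Among all members the intervals of the 2 sham libraries overlapped, as did those of the 2 injured ones, and both sham values lay above both injured values. In classical monocytes it stood at 223, 33.4, 216 and 51.8 CPM, high in the standard sham and 3 dpi libraries and low in the ActD sham and 14 dpi libraries. The members with 3 or 4 genes were above the classical cells in all 4 libraries, at 1115, 715, 624 and 407 CPM. With every cell thinned to 2000 UMIs, 75.8%, 100%, 51.8% and 42.5% of members had a UMI of Nr4a1. The shares were 41.3%, 9.72%, 30.9% and 11.9% in classical monocytes and 11.9%, 3.39%, 15.3% and 1.99% in B cells, a class in which free RNA and true transcripts of this gene cannot be separated.

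The 20 listed genes of non-classical monocytes were then compared between members and classical monocytes. The ActD sham library, with 8 members, was too small to enter the model, so summed counts of the standard sham, 3 dpi and 14 dpi libraries were fitted with edgeR's quasi-likelihood test, with library as a block and Benjamini-Hochberg adjustment at 0.05. Of 8431 genes tested beside the rule's own, 27 were higher in the members (0.320%) and 67 lower (0.795%). These calls rested on the 14 dpi library and on the library term: without that library 1 gene was higher and 14 lower, and with no library term edgeR called 0 and 0, with 511 genes at an unadjusted p under 0.05. With members of 3 or 4 genes, 378 of 8153 were higher (4.64%) and 402 lower (4.93%). Of the 94 genes called with all members, 87 were also called in the same direction with 3 or 4 genes, which is 92.6% of the first set and 11.2% of the 780 in the second. In the 20-gene list 6 rose and none fell among all members (15 and none with DESeq2; at an unadjusted p under 0.05, 18 were higher and 1 lower; median log2 difference 2.41, against -0.01 for all genes), and 18 rose and none fell with 3 or 4 genes (median 3.19 against -0.10). The list was drawn up with results of these data known, and genes that travel with Treml4, Ace, Spn or Adgre4 were indirectly selected by the rule, so the counts describe the members and are no independent support for their name.

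**Figure D2:**
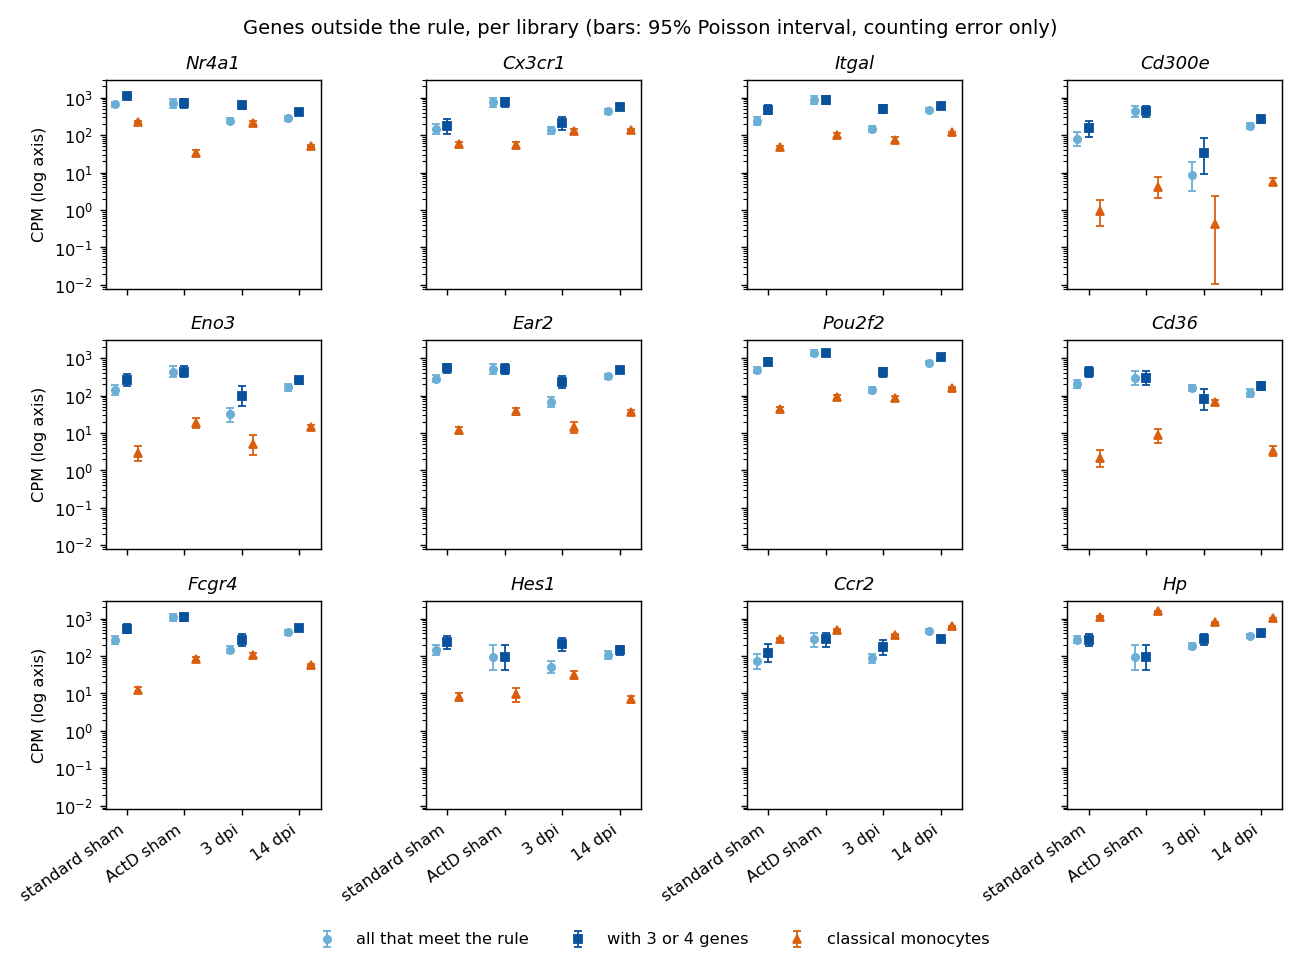
CPM (log axis) of 12 genes that the rule did not use, by library, in all members (circles), members with 3 or 4 of the 4 genes (squares) and classical monocytes (triangles), with 95% exact Poisson intervals. Cd300e, Eno3, Ear2, Itgal and Pou2f2 are above the classical cells in every library, Ccr2 and Hp are below them, and at 3 dpi the circles sit below the squares for all 7 of these genes.

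Cd300e (chr11:115051917-115062177), an activating receptor of the CD300 family, had the largest difference of the 27 genes that were higher. It stood at 78.8, 436, 8.59 and 174 CPM in the members and at 0.925, 4.13, 0.422 and 5.69 CPM in classical monocytes. The level at 3 dpi rested on 6 UMIs, against 23, 36 and 104 in the other libraries. The fitted log2 difference was 5.28 ± 0.42 (SE, adjusted p = 0.00135, edgeR), and 5.96 ± 0.43 with 3 or 4 genes (adjusted p = 3.86e-06). After thinning to 2000 UMIs, 15.2%, 37.5%, 5.36% and 31.0% of members had a UMI of Cd300e, and 0.608%, 6.94%, 0% and 1.31% of classical monocytes. In microglia the share was between 0.0355% and 0.112%.

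Ear2, a ribonuclease of the eosinophil-associated family, stood at 281, 521, 67.3 and 327 CPM in the members and 11.9, 37.9, 14.3 and 36.8 CPM in classical monocytes. Its fitted log2 difference was 3.35 ± 0.40 (adjusted p = 0.00702). Eno3, an enolase of glycolysis best known from muscle, stood at 144, 436, 31.5 and 167 CPM in members and at 2.91, 18.8, 5.06 and 14.8 in classical monocytes, a difference of 3.95 ± 0.50 (adjusted p = 0.00877). Both genes were above the classical cells in all 4 libraries and lowest at 3 dpi. Itgal, the alpha chain of LFA-1, stood at 239.9, 848, 147 and 467 CPM against 47.4, 99.2, 75.5 and 118, a difference of 1.76 ± 0.27 (adjusted p = 0.0224). Dusp16, a phosphatase of stress-activated kinases, rose by 3.28 ± 0.45 (adjusted p = 0.0113). Bcl2a1d, which protects against apoptosis, rose by 3.42 ± 0.39 (adjusted p = 0.00644), and its copies Bcl2a1a and Bcl2a1b rose with it (3.60 and 2.73). The copies are nearly identical in sequence, so reads may be split between them.

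Several genes known for this class were higher in the members but passed edgeR's test only once the 2-gene cells were left out. DESeq2 also called Nr4a1, Pou2f2, Fcgr4 and Hes1 among all members, but not Cx3cr1 (adjusted p = 0.0987). Nr4a1 had a log2 difference of 1.41 ± 0.37 (adjusted p = 0.127, edgeR) in all members and 2.20 ± 0.29 (adjusted p = 0.000474) with 3 or 4 genes. Pou2f2, the transcription factor OCT2, stood at 476, 1356, 143 and 751 CPM in members and 43.9, 89.8, 83.5 and 159.8 in classical monocytes, a difference of 2.16 ± 0.43 (adjusted p = 0.0605), and of 2.98 ± 0.35 (adjusted p = 0.000202) with 3 or 4 genes. Cx3cr1, the fractalkine receptor, stood at 144, 751, 136 and 427 CPM against 57.7, 54.8, 129 and 139. At 3 dpi the members and the classical cells were close, and the fitted difference was 1.01 ± 0.29 (adjusted p = 0.163), or 1.39 ± 0.30 (adjusted p = 0.0109) with 3 or 4 genes. Fcgr4, an activating receptor for IgG, stood at 267, 1078, 149 and 425 CPM against 12.4, 82.6, 108 and 57.6, and its edgeR difference passed with 3 or 4 genes (3.25 ± 0.59, adjusted p = 0.00358). Hes1, a repressor downstream of Notch, followed the same course, at 144, 96.9, 51.5 and 105 CPM against 8.06, 9.39, 30.8 and 6.94, and at 3.92 ± 0.40 (adjusted p = 5.93e-05) with 3 or 4 genes.

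The lipid genes of the list took another course. Cd36, a scavenger receptor that takes up oxidised lipids, stood at 206, 303, 157 and 117 CPM in the members and at 2.11, 8.64, 66.2 and 3.34 in classical monocytes, so that 3 dpi was the library in which the classical cells came nearest. Fabp4, a carrier of fatty acids, stood at 120.0, 315, 58.7 and 58.4 CPM against 2.77, 9.02, 24.5 and 2.16. In the members with 3 or 4 genes at 3 dpi the values were lower than in all members, at 83.2 CPM for Cd36 and 25 for Fabp4, unlike Nr4a1, Itgal, Ear2 and Pou2f2. There Fabp4 was about level with the 24.5 CPM of the classical cells, and Cd36 stood above their 66.2 CPM. Pglyrp1, a peptidoglycan receptor, and Cd9, a tetraspanin, were the 2 listed genes that did not pass in either fit. Pglyrp1 had a log2 difference of -0.66 ± 0.23 among all members (unadjusted p = 0.0184, adjusted p = 0.226, edgeR) and of 0.24 ± 0.32 with 3 or 4 genes (adjusted p = 0.711), so its sign turned between the 2 sets. Cd9 stood at 0.54 and 0.59.

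Genes of the classical monocyte were lower in the members, though not as one block. Of 19 tested, 5 fell and none rose among all members (median log2 difference -1.19), and 8 fell and 1 (Sirpb1c, 1.63) rose with 3 or 4 genes (median -1.35). Among all members 2 were higher and 11 lower at an unadjusted p under 0.05 (edgeR), and DESeq2 called 9 lower and none higher. Chil3, a chitinase-like secreted protein, stood at 175, 0, 1266 and 152 CPM against 2302, 1800.4, 3855 and 1534, a difference of -2.86 ± 0.41 (adjusted p = 0.0143, edgeR). Its level in the 3 dpi members was well above that of the others, as it was in the classical cells. The 0 in the ActD sham members allows up to 36.3 CPM, the worth of 3 UMIs. Vcan, the proteoglycan versican, fell by 2.71 ± 0.37 on the log2 scale (adjusted p = 0.0116), and Hp, haptoglobin, by 1.90 ± 0.20 (adjusted p = 0.00468).

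Ccr2, the receptor that brings classical monocytes out of the marrow and into tissue, had UMIs in the members of every library. The part of free RNA in the values of Ccr2 was not tested. It stood at 72.0, 279, 87.3 and 462 CPM, against 293, 506, 368 and 617 CPM in classical monocytes, below them in every library and closest at 14 dpi. The log2 difference was -1.45 (adjusted p = 0.0874, edgeR) in all members and -1.23 (adjusted p = 0.00589) with 3 or 4 genes. At 14 dpi Ccr2 was lower in the members with 3 or 4 genes (290.1 CPM) than in all members, so the 2-gene cells carried more of it. F13a1, coagulation factor XIII, stood at 109.7, 0, 324 and 98.4 CPM against 711, 496, 510.3 and 565, and at 88.5, 0, 99.9 and 50.2 with 3 or 4 genes, where it fell by 3.09.

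**Figure D3:**
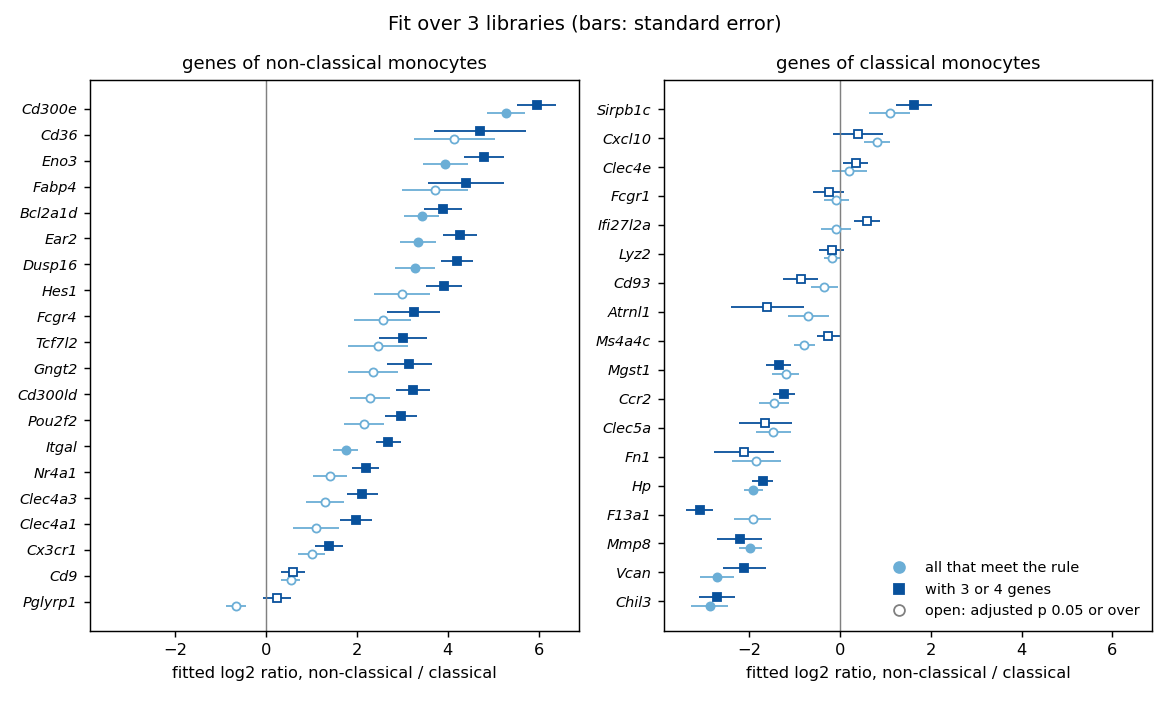
Fitted log2 difference (x axis, members over classical monocytes, ± SE) of the 20 non-classical and 18 of the 19 classical monocyte genes tested (1 is not drawn) from 3 libraries, for all members and for members with 3 or 4 of the 4 genes. Filled points passed an adjusted p of 0.05 and open points did not; 6 of 20 non-classical genes passed with all members and 18 of 20 with 3 or 4 genes.

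Granule genes were among the 15 largest decreases of genes with at least 200 UMIs and 1 direction in every library fitted. Elane (neutrophil elastase) had a log2 difference of -6.70 ± 0.49 (adjusted p = 0.00112, edgeR), Prtn3 (proteinase 3) of -5.60, Camp (cathelicidin) of -5.44 and Mpo (myeloperoxidase) of -5.05. Elane stood at 13.7, 12.1, 1.43 and 36.7 CPM in the members and at 3788, 881, 508 and 1608 CPM in the classical cells. Elane, Prtn3 and Mpo belong to marrow progenitors of granulocytes and monocytes, and 180, 26, 17 and 314 of the classical cells carried progenitor genes. Camp belongs to neutrophils, and 114, 34, 3 and 327 of the classical cells carried neutrophil genes. With the progenitor cells left out, an alternative chosen after seeing the data, 54 genes were higher and 89 lower in the members. Elsewhere, Slc12a2, a sodium-potassium-chloride transporter, rose by 4.02 ± 0.54 (adjusted p = 0.0107), and Smpdl3b, a sphingomyelinase-like enzyme of the membrane, by 3.11.

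Genes of the cell cycle were low in the members. None of the 16 listed rose, 3 fell in all members (Ccnb2, Rrm2 and Stmn1; median -2.26), and all 16 fell with 3 or 4 genes (median -5.06). Mki67, the proliferation antigen, stood at 151, 0, 14.3 and 6.67 CPM in members and at 332, 421, 60.7 and 413 in classical monocytes. In the standard sham library, where the members' value was highest, 1 cell held 79.5% of the UMIs, and with 3 or 4 genes Mki67 was at 8.85 CPM. The classical cells with progenitor genes enter this comparison too.

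Genes of migration, survival and transcription were called higher more often with 3 or 4 genes than with all members. The same held over all genes tested, of which 4.64% were higher with 3 or 4 genes and 0.320% with all members. The difference between the fits was not tested. Of 19 adhesion and migration genes tested, 8 rose and 2 (Ccr2 among them) fell with 3 or 4 genes, against 1 and 1 of 18 with all members. S1pr5, a sphingosine-1-phosphate receptor needed to leave the marrow, rose by 4.74 (adjusted p = 0.000139, edgeR), Itga4, a chain of the integrin VLA-4, by 1.70, and Pecam1, an endothelial and leukocyte adhesion protein, by 2.21. S1pr5 stood at 37.7, 206, 2.86 and 71.7 CPM in the members and at 1.06, 3.76, 1.27 and 5.10 in classical monocytes, and its value in the 3 dpi members was below the worth of 3 UMIs. Of 14 survival genes 6 rose with 3 or 4 genes, among them Bcl2 (2.21 ± 0.29, adjusted p = 0.000401), against 3 with all members, all of them copies of Bcl2a1. Bbc3 and Pmaip1, which promote apoptosis, were also among the 6.

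Of 20 transcription factors tested, 9 rose and 1 fell with 3 or 4 genes, and none rose and 1 fell with all members (7 and 1 at an unadjusted p under 0.05, and 3 and 1 with DESeq2). Among the 9 were Klf2, a factor of quiescence and vessel-wall cells (1.27 ± 0.22, adjusted p = 0.00317, edgeR), Klf4 (1.01), and Cebpb, which encodes C/EBPβ. Cebpb stood at 2266, 1768, 782 and 1509.8 CPM in all members and at 1257, 838, 978 and 778 in classical monocytes, below the classical cells at 3 dpi alone, where members with 3 or 4 genes were at 1281. Cebpd, its relative, fell in both fits (-1.49 and -1.52). Of 15 lipid and scavenger genes 4 rose with 3 or 4 genes: Cd36, Fabp4, Abcg1, an exporter of cholesterol, and Pparg, the nuclear receptor of fatty acids (4.07). With all members none of 14 passed with edgeR, 5 were higher at an unadjusted p under 0.05, and 4 passed with DESeq2. Of 7 Fc receptor genes, 1 (Fcgr4) rose with 3 or 4 genes, and of 10 complement genes 2 rose (Itgax, a chain of complement receptor 4, among them) and 1 fell (Cfp). With all members no Fc receptor gene passed with edgeR, 2 were higher at an unadjusted p under 0.05, and 1 passed with DESeq2. Of the 10 complement genes, C3 fell and none rose with all members. At an unadjusted p under 0.05, 6 were higher and 2 lower, and DESeq2 called 4 higher and 1 lower.

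MHC class II genes were higher in the members, and much of this lay in few cells. H2-Aa stood at 672, 2579.7, 1191 and 3482 CPM in members and 94.8, 122, 419 and 599 in classical monocytes, a log2 difference of 2.28 ± 0.27 (adjusted p = 0.00702, edgeR). With Cd74, the invariant chain, H2-Ab1 and H2-Eb1, 4 of 12 listed genes rose among all members. In the ActD sham library 1 of the 8 members held 99.1% of the H2-Aa UMIs. At 14 dpi the 2-gene cells stood at 5636 CPM and those with 3 or 4 genes at 2034, and the dendritic cell gene Cd209a was at 278 CPM in the former and 0 in the latter. With 3 or 4 genes 6 of 12 rose and none fell: H2-Aa, H2-Ab1, Cd74, Cd86, Cd83 and Cd274. In that set the fitted difference of H2-Aa was 1.27 (adjusted p = 0.0199, edgeR) and that of H2-Eb1 0.89 (adjusted p = 0.219). In the standard sham the members with 3 or 4 genes were above the classical cells for Cd74 (1194 against 381 CPM) and for the summed list (2389 against 1027 CPM), but not for the 3 class II genes, with 88.5 against 94.8 CPM for H2-Aa, 97.3 against 98.1 for H2-Ab1 and 8.85 against 66.4 for H2-Eb1. The part of dendritic cell transcripts in the 2-gene cells was not tested.

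At 3 dpi the 2-gene cells carried the genes of lesion macrophages, and for them the name of the class was not borne out. Fabp5, a carrier of fatty acids in lipid-laden macrophages, stood at 7281 CPM in the 2-gene cells and at 6999 and 6878 in cells with none or 1 of the 4 genes, against 491 in members with 3 or 4. Gpnmb, a glycoprotein of phagocytic macrophages, stood at 1677 CPM in 2-gene cells, at 1588 and 1485 with none or 1, and at 158 with 3 or 4. The same held for Spp1 (osteopontin), at 19662 CPM against 27464 and 26646, and 3453 with 3 or 4 genes. In each case the 2-gene cells sat with the cells that had fewer of the genes. For the non-classical genes they lay on the same side: Nr4a1 stood at 135, 116 and 166 CPM with 0, 1 and 2 genes and 624 with 3 or 4, Itgal at 19.1, 23.3, 72.6 and 508, and Pou2f2 at 64.2, 66.2, 86.5 and 416. Ear2 stood at 1.44, 6.56, 32.9 and 233 CPM. Itgal and Ear2 were thus higher at each step, and most of the gain came at 3 genes.

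**Figure D4:**
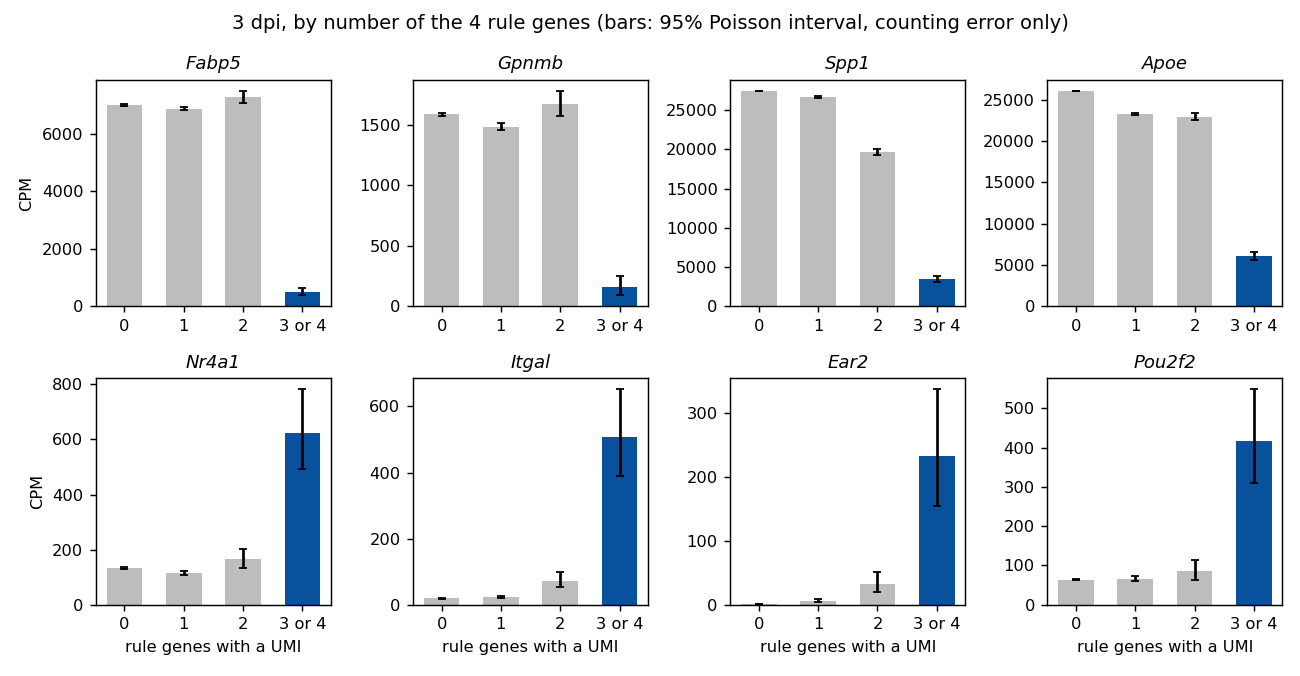
CPM at 3 dpi of 4 macrophage genes (Fabp5, Gpnmb, Spp1, Apoe) and 4 non-classical monocyte genes (Nr4a1, Itgal, Ear2, Pou2f2) in cells that met the rest of the rule with 0, 1, 2 or at least 3 of the 4 rule genes, with 95% exact Poisson intervals. Cells with 2 genes are near those with none or 1 for Fabp5, Gpnmb, Spp1 and Apoe, and cells with 3 or 4 stand apart from them.

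The 16 members with 3 or 4 genes at 3 dpi were not free of these transcripts. Summed over the marker list of injury macrophages, they carried 5159 CPM, against 27409 in all members at 3 dpi, and 51.4, 36.3 and 337 in those of the sham libraries and of 14 dpi. The part of macrophage transcripts in their other values was not tested. Among all members, markers of border macrophages were summed to 13.7, 109, 305 and 55.1 CPM, and T cell markers to 0, 0, 15.7 and 6.67 CPM. The T cell markers and the microglial markers, the latter at 229.7, 424, 471 and 349 CPM, were held low by the rule. It left out cells with Cd3e or with 3 or more microglial genes, so these 2 sets are no check on the members. The rule used no border macrophage gene, and 1, 1, 14 and 2 members carried border macrophage genes. At 3 dpi 12 of these 14 were 2-gene cells. Neutrophil markers reached 11078, 206, 1482 and 11549.9 CPM in all members, of which S100a9 was 5913, 60.6, 720.1 and 5794. With 3 or 4 genes they stood at 2619, 206, 4169 and 15715.5 CPM, of which S100a9 was 1336, 60.6, 2047 and 7943, so that at 3 and 14 dpi the stricter set held more neutrophil transcripts than all members and in the standard sham fewer. Classical monocyte markers at 3 dpi were also higher in the stricter set, at 5126 against 2266 CPM. The part of these transcripts in the values of either set was not tested. At 14 dpi 6 of the 62 members with 3 or 4 genes carried neutrophil genes.

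Between libraries, members were compared by the ratio of their CPM, counting a gene as different past 2-fold. Among all genes compared, 17.8% were higher and 19.0% lower in the standard than in the ActD sham members. At 3 dpi against the ActD sham 20.9% were higher and 25.3% lower, at 14 dpi against the ActD sham 13.6% and 9.83%, and at 14 dpi against 3 dpi 22.3% and 8.94%. With 3 or 4 genes the shares were 8.63% and 16.3%, 12.5% and 19.2%, 11.5% and 7.10%, and 18.9% and 6.39% in the same order. Among all members, scaling by TMM (trimmed mean of M values) in place of total UMIs would shift the log2 ratios by 0.40, 0.70, 0.32 and -0.38 in these comparisons. Those against the ActD sham share its 8 cells. The standard sham and 3 dpi files carry software version 3.0.1 and the others 3.1.0, and the male share of cells with a sex call was 30.4%, 50%, 60.6% and 69.6% in the members, both of which move with the libraries, and their part was not tested.

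Genes of repair and injury were higher in the 3 dpi members than in those of the ActD sham and 14 dpi. Of 15 compared, 14 were at least 2-fold higher at 3 dpi than in the ActD sham (median log2 ratio 4.43) and 14 were at least 2-fold lower at 14 than at 3 dpi (median -4.18). With 3 or 4 genes, 9 of 10 were higher at 3 dpi than in the ActD sham (median 3.63), and 10 of 12 lower at 14 dpi (median -2.44). Spp1 stood at 0, 0, 16874 and 91.8 CPM in members and 17.0, 18.8, 8919.7 and 160.2 in classical monocytes, so that the classical cells of the same library moved with them. Hmox1, heme oxygenase, stood at 51.4, 36.3, 4933 and 78.4 CPM, and at 366 at 3 dpi with 3 or 4 genes. Between the classes none of the 14 repair genes tested passed with all members (edgeR; 2 higher and 3 lower at an unadjusted p under 0.05, and 1 lower with DESeq2), and 3 fell with 3 or 4 genes (Spp1, Thbs1 and Cd63). Glycolysis genes moved less between libraries, with 8 of 13 higher at 3 dpi than in the ActD sham (median 1.67) and none lower, and 6 of 10 with 3 or 4 genes (median 1.13).

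Interferon-stimulated genes were highest in the ActD sham members and low at 3 dpi. Of 18 compared, 17 were at least 2-fold higher at 14 than at 3 dpi and none lower (median log2 ratio 2.48), and with 3 or 4 genes 12 of 15 (median 2.18). Against the ActD sham, 13 of 14 were lower at 3 dpi (median -4.16), 16 of 18 at 14 dpi (median -1.62) and 12 of 13 in the standard sham (median -3.23). For members with 3 or 4 genes the counts were 11 of 12 (median -3.81), 15 of 18 (median -1.61) and 10 of 11 (median -3.52). Irf7, a factor that amplifies the interferon response, stood at 99.4, 933, 27.2 and 235 CPM in the members and 52.2, 279, 68.7 and 283 in classical monocytes. Among the members it was highest in the ActD sham, and among the classical cells about as high there as at 14 dpi. In that library 1 cell held 73.5% of the Isg15 UMIs and 82.1% of those of Rsad2, but Irf7 was found in 7 of the 8 cells, the top cell holding 33.8%. Between the classes, 1 of 19 interferon genes passed with 3 or 4 genes (edgeR). With all members none passed with edgeR or DESeq2, and at an unadjusted p under 0.05 none was higher and 1 lower.

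**Figure D5:**
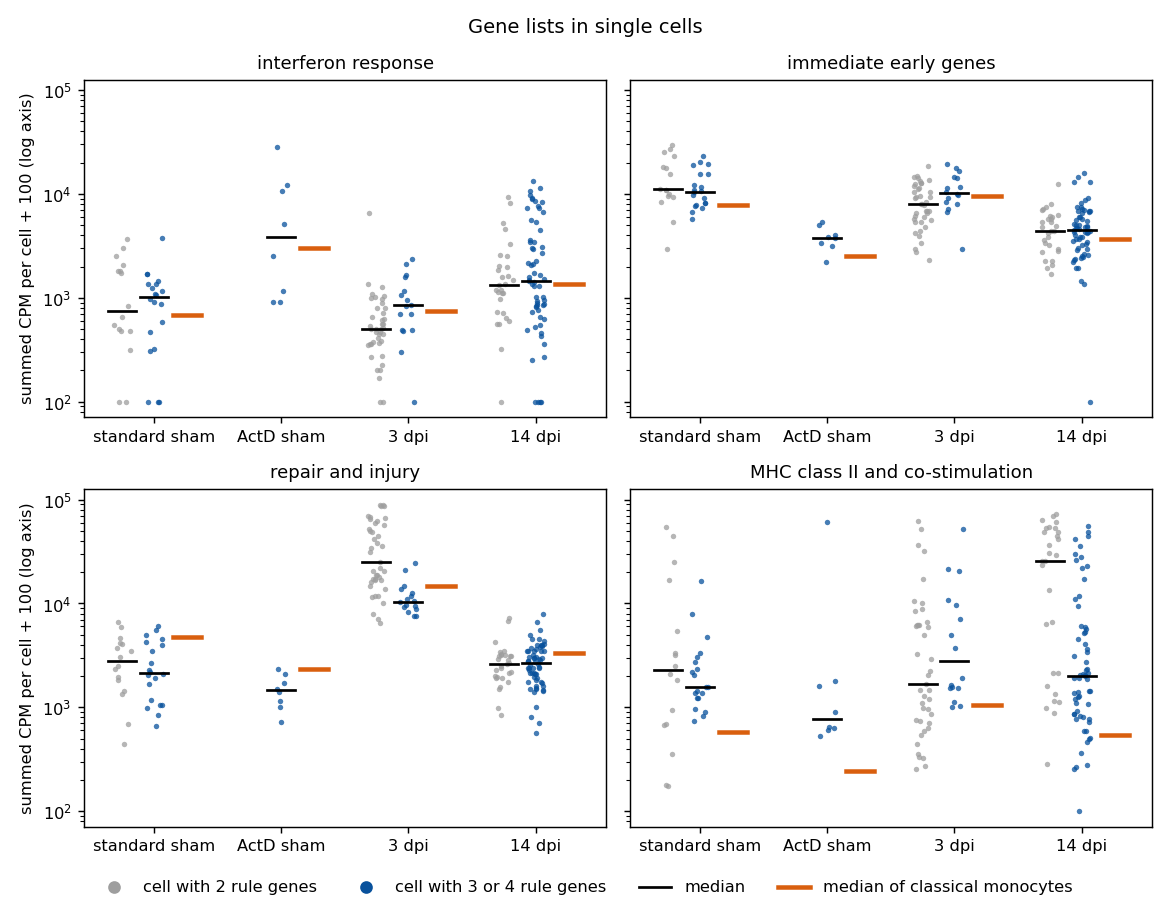
Summed CPM per cell (log axis, 100 added) of 4 gene lists in members with 2 (grey) and with 3 or 4 (blue) of the rule genes, by library, with the median of the members (black) and of classical monocytes (orange). The interferon medians of members are 836, 3744, 433 and 1335, and at 3 dpi the grey cells carry more of the repair and injury genes than the blue ones.

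Cell by cell, the interferon genes summed to a median of 836 CPM in the standard sham members (range 0 to 3632), 3744 in the ActD sham (805 to 27913), 433 at 3 dpi (0 to 6496) and 1335 at 14 dpi (0 to 13155). All 8 ActD sham members were thus above the median of the 3 dpi members, while the ranges of all libraries overlapped. The classical monocytes had medians of 581, 2941, 651 and 1252 CPM, in which the ActD sham was again the highest. The repair and injury list had medians of 2199, 1354, 17689 and 2507 CPM, and at 3 dpi 24943 in 2-gene cells and 10292 in those with 3 or 4. The list of non-classical genes had medians of 8937, 12904, 3136 and 9193 CPM, with 6090.3 at 3 dpi and 10286 at 14 dpi for 3 or 4 genes, so that 3 dpi stayed the lowest. For MHC class II the 14 dpi cells split, with a median of 25536 CPM in 2-gene cells and 1919.7 in those with 3 or 4.

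Immediate early genes, which ActD is used to hold down, were higher in the standard sham members than in those of the ActD sham. Of 17 compared, 10 were at least 2-fold higher and none lower (median log2 ratio 1.29). Jun, a subunit of the AP-1 factor, stood at 1217, 169.6, 736 and 342 CPM in the members and 1143, 128, 897 and 195 in classical monocytes. Fos, its partner, stood at 922, 242, 1309 and 591 CPM against 942, 553, 1695 and 747. Both were high in the standard sham and at 3 dpi and low in the ActD sham, in either class. Nr4a1 stood at 668 and 715 CPM in all members of the standard and ActD sham libraries, and at 1115 (95% interval 929 to 1327) and 715 (544 to 922) with 3 or 4 genes. Its level in the 2-gene cells of the standard sham was 386 CPM, and 1 of these 16 cells held 43.6% of their summed UMIs. In classical monocytes it was 223 and 33.4 CPM. At 3 dpi 9 of 18 immediate early genes were higher than in the ActD sham and none lower (median 0.87), and with 3 or 4 genes 11 of 14 (median 1.66), although the study describes that library as made with ActD. Of the members with 3 or 4 genes, those of the standard sham were higher than those of the ActD sham in 10 of 15 genes (median 1.37). Between the classes none of 19 passed with all members (edgeR; 2 at an unadjusted p under 0.05, 1 with DESeq2) and 5 of 18 rose with 3 or 4 genes, among them Egr1 (0.92) and Nfkbiz (1.56).

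Inflammatory genes followed the same libraries. Against the ActD sham, 8 of 11 were at least 2-fold higher and 1 lower in the standard sham (median log2 ratio 2.93), and 13 of 17 higher and 2 lower at 3 dpi (median 2.35). Among members with 3 or 4 genes, 6 of 6 were higher in the standard sham (median 3.87) and 8 of 8 at 3 dpi (median 4.70). At 14 dpi 10 of 17 were lower than at 3 dpi and none higher (median -1.17), and with 3 or 4 genes 10 of 12 lower and 1 higher (median -1.81). Il1b, the cytokine interleukin-1β, stood at 696, 84.8, 1354 and 602 CPM in members and 196, 31.9, 962 and 138 in classical monocytes, above them in every library. Against the classical cells 0 of 18 inflammatory genes tested passed with all members in edgeR (7 were higher at an unadjusted p under 0.05, and 1 passed with DESeq2), and 3 of 18 rose and none fell with 3 or 4 genes. Il1b was among the 3 (1.43 ± 0.27, adjusted p = 0.00426, edgeR), with Tnf (1.39) and Tlr7, the receptor of single-stranded RNA that patrolling monocytes are known to use (1.58). Cxcl2, a neutrophil attractant, stood at 1474, 0, 1748 and 219 CPM against 261, 106, 2184 and 102. Members with 3 or 4 genes stood at 726, 0, 1356 and 307 CPM. In both sets it was above the classical cells in the standard sham and at 14 dpi and below them in the ActD sham and at 3 dpi.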

How the data were processed

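The authors deposited filtered Cell Ranger matrices of UMI counts, whole numbers per gene and barcode; the labels name mm10, and the file headers give software version 3.0.1 or 3.1.0. No normalization had been applied. The labels name another droplet method in the design text than in the protocol, which describes gel beads. Counts were summed per library and class, divided by total UMIs for CPM, and fitted with edgeR 4.0.16 (R 4.3.3, TMM, filterByExpr, glmQLFit and glmQLFTest, library block, 2 residual degrees of freedom). Libraries with under 10 members were left out of the fit. The standard errors (SE) were back-calculated, as the absolute log2 difference over the square root of the quasi-likelihood F statistic. Intervals are 95% exact Poisson or Clopper-Pearson and cover counting error only. Doublets were called with Scrublet in scanpy 1.11.5 and were kept in the values given above. Ratios between libraries used genes with 20 or more UMIs over both, with 0.5 UMIs added where 1 was at 0. Positions are those of GENCODE M21, which held 30934 of 31053 gene IDs; promoters are RefSeq's (GRCm38.p6; chromosome 18 left out). Of 242 listed genes, 241 were found. No cell was assigned to a mouse. Named genes were the monocyte lists, the 15 largest differences each way among called genes with at least 200 UMIs and 1 direction in every library, the 10 largest ratios each way per pair of libraries, and the 4 most abundant genes of each other list. Other genes named were chosen after their values were seen. The members and lists were chosen with earlier results of these data known. Alternatives were DESeq2 1.42.0, other size factors, other member and classical rules, thinning to 2000 UMIs, no filter on low counts, no library term, and leaving out each library. Some genes are not reported here.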

Additional observations from a re-analysis of the deposited data

Results flagged for a closer look

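For 2 genes, both of the interferon list, the summed members differed from classical monocytes one way in both sham libraries and the other way in both injured libraries. They were the only ones to meet this pattern in a screen of the 241 listed genes found, less those of the rule and the sex list. The screen asked for counting intervals on 1 side of 0 in every library. Genes outside the lists were not screened. For Isg15 the direction in the ActD sham rested on 1 cell. Isg15, a ubiquitin-like protein, had log2 ratios of members over classical monocytes of 0.89 in the standard sham and 0.50 in the ActD sham, and of -1.29 at 3 dpi and -0.65 at 14 dpi. The mean of the injured libraries lay -1.67 from the mean of the sham libraries. In the ActD sham members 1 cell held 73.5% of the Isg15 UMIs, and the remaining UMIs would put these members below the classical cells. For Irf7 the ratios were 0.93 and 1.74 in the sham libraries and -1.34 and -0.26 in the injured ones, a difference of -2.14. With 3 or 4 genes the Irf7 ratios were 1.90 and 1.74 in the sham libraries, -0.24 at 3 dpi and 0.08 at 14 dpi, so the opposite sign at 14 dpi was not seen in those cells. For Isg15 they were 1.09, 0.50, -0.95 and -0.15. These differences were not tested, since each condition had 1 library.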

How the results depend on the processing

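Of 252 alternative median log2 ratios of gene lists between libraries, 223 stayed within the counting interval of the main value. Another 24 moved outside it, and 5 reversed in sign. The counts of called genes below are not among these values and varied widely. The 27 higher genes became 378 with 3 or 4 genes, 42 with Ly6c2 at 0, 46 without doublets, 106 without cells carrying a microglial gene, 54 without cells carrying genes of other classes, 73 with a classical rule of 4 UMIs, 96 after thinning, 107 with DESeq2, 281 with no filter on low counts and 14 with stricter cell filters. The 67 lower genes became 402 with 3 or 4 genes, 108 with Ly6c2 at 0, 114 with 4 UMIs, 120 with DESeq2, 479 with no filter and 35 with stricter filters. Without the library term edgeR called 0 higher and 0 lower, with 511 genes at an unadjusted p under 0.05 (1199 with it). Leaving out 1 library gave 1 (14 dpi) to 468 (3 dpi) higher and 14 (14 dpi) to 507 (3 dpi) lower genes, with 124 lower without the standard sham. Conditions could not be paired with each other, since each had 1 library, while both classes of a library were paired by the library term. Alternatives chosen after seeing the data gave 133 higher and 181 lower with the ActD sham added, 54 higher without progenitor cells, 104 lower without the standard sham member with the most UMIs, 198 and 148 with 3 or 4 genes and without progenitors and other classes, and 507 and 705 with 3 or 4 genes and the ActD sham.

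The share of members moved to 0.349%, 0.401% and 0.316% in the standard sham (3 or 4 genes, no microglial gene, rule applied after thinning), to 0.168%, 0.283% and 0.199% at 3 dpi in the same order (0.430% without cells of other classes), and to 0.570%, 0.616% and 0.520% at 14 dpi (0.643% with Ly6c2 at 0). In the ActD sham it was 0.182% (4 cells) with no microglial gene and 0.234% after thinning, within the counting interval of 0.363%; after thinning 3 dpi had the lowest share. The median MHC class II log2 ratio reversed between the sham libraries from -1.62 to 2.61 without cells carrying a microglial gene and 2.59 without cells of other classes, and at 3 dpi against the ActD sham from -1.12 to 4.02, 2.0 and, thinned, 0.04. The first 2 settings remove the ActD sham cell that held nearly all of these UMIs. Depth limits the ActD sham most, where 8 members summed to 82569 UMIs.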

Other observations

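Members shared with the classical monocytes a tilt in sex between libraries. The male share of cells with a sex call was 30.4% (7 of 23), 50% (2 of 4), 60.6% (20 of 33) and 69.6% (39 of 56) in the members of the 4 libraries, sham before injured, and 8.42%, 20%, 56.2% and 63.6% in classical monocytes. In microglia it was 42.5%, 44.8%, 72.1% and 47.1%. Classical monocytes carried neutrophil genes in 114, 34, 3 and 327 cells.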
